A study of Mus musculus with 6 samples.

Results

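The interferon response genes described here are 35 genes that cells are known to switch on when an interferon binds its receptor. They were chosen by a list of names from the 54093 genes of the table, and each of the 35 symbols was found once. RNA was sequenced from the free wall myocardium of right atria (RAs) taken at P21 from C57BL/6 mice of WT genotype. The sham group had sham surgery, and the volume overload (VO) group had an aortocaval fistula (ACF), a puncture from the abdominal aorta into the inferior vena cava made in male or female pups at P7. Each group held 3 libraries, named here sham 1 to sham 3 and VO 1 to VO 3, and no library received an interferon, a virus or another agent by the labels. The sources do not say whether a library came from 1 animal or from a pool, so the p-values measure only the spread between these samples, which may be technical.

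Interferons are secreted when a cell senses foreign or misplaced nucleic acid. Type I interferons act through the receptor chains Ifnar1 and Ifnar2 and the factor ISGF3, which includes Stat2 and Irf9 and binds the interferon-stimulated response element (ISRE). Interferon gamma acts through Ifngr1 and Ifngr2 on genes that carry the gamma-activated site (GAS), and most cells of the heart, including myocytes, endothelial cells, fibroblasts and macrophages, carry these receptors.

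The libraries held 15963082 to 17237903 fragments on genes, recovered from the deposited FPKM values (fragments per length of gene, relative to a library size that the authors set). The markers of atrial cardiomyocytes were abundant. Myl7, the atrial myosin light chain, was at 8501, 5701 and 5531 FPKM in sham 1 to 3. In VO 1 to 3 it was at 2586, 5056 and 3767 FPKM, so atrial myocardium was present in every library. Xist was above 1 FPKM in 4 libraries, sham 1, sham 3, VO 1 and VO 2, and the Y-linked gene Ddx3y in the other 2. A gene was tested where its mean was at least 1 FPKM over the 6 libraries, which 12627 genes and all 35 members passed.

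The members share sequence features that the choice by name did not use. RefSeq promoters of GRCm38.p6, 250 bases before and 50 after the start site, were matched by symbol for 27 of the 35. The ISRE core GAAANNGAAA, searched on both strands, was in the promoters of 16 of these 27 members (59.3%) and of 3.99% of all 27025 genes with a promoter in the table, and in 3.44% of all promoters. The GAS motif TTCNNNGAA, which reads the same on both strands, was in 9 members (33.3%), in 9.55% of all genes and in 8.3% of all promoters. At least 1 of these motifs was in 20 members and both were in 5. A match is a run of letters and not a measured binding site.

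Below are the 250 bases before the start site, in GRCm38.p6, of an early effector of type I interferon (Isg15), an RNA binder (Ifit1), an interferon-inducible GTPase with both motifs (Igtp) and a transcription factor with GAS alone (Irf1), with every ISRE core and GAS match in capitals. They lie at chr4:156200819-156201068 on the minus strand, and at chr19:34640639-34640888, chr11:58199306-58199555 and chr11:53769764-53770013 on the plus strand.
Isg15: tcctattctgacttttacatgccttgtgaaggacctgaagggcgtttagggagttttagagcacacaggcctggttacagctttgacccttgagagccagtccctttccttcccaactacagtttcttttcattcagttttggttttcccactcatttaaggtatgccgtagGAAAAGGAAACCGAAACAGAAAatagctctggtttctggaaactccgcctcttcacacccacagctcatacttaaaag
Ifit1: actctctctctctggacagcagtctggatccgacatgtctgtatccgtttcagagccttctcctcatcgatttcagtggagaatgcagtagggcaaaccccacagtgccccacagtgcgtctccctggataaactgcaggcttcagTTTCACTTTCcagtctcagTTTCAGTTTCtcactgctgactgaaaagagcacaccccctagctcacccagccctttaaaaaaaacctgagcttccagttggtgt
Igtp: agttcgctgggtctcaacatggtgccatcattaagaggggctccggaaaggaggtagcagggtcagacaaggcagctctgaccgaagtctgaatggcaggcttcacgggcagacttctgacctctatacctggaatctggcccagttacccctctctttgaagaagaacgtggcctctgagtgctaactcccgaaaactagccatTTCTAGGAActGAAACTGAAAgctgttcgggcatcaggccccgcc
Irf1: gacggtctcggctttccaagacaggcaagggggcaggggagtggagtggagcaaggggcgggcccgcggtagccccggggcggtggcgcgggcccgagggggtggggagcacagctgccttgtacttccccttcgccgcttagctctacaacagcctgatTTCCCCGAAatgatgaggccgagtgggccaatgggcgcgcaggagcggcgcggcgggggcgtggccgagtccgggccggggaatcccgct
Isg15 held 3 overlapping ISRE cores, the first starting 78 bases before the start site. Ifit1 held 2, starting 104 and 85 bases before it, both read on the opposite strand. In Igtp a GAS match at 45 bases was followed by an ISRE core at 34 bases, and Irf1 held a GAS match at 90 bases. By role, an ISRE core was in all 5 matched GTPases and in 0 of the 3 antigen processing genes, of which Psmb9 and Tap1 start 226 bases apart on opposite strands.

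The question for the group comparison was whether volume overload of the developing RA changed the level of these genes. Between VO and sham, 27 of the 35 were higher and 8 were lower in VO on the log2(FPKM + 0.1) scale. The median log2 fold change was 0.22, while over all tested genes it was -0.01, with 6124 higher and 6503 lower. The members ran from -0.18 in Ifi35 to 0.61 in Mx1. With limma's fit across all tested genes, 0 members passed an adjusted p of 0.05, their adjusted p-values lying between 0.41 and 0.979, and 1 gene of all tested did (0.00792%). At an unadjusted p under 0.05, 1 member, Oas2, was higher and 0 were lower, beside 3.89% of all tested genes higher and 8.08% lower, so the members' count was close to the background. The voom fit on the recovered fragments likewise gave 0 members after adjustment and 1 before it.

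No member separated the groups. The sham and VO values overlapped in all 35, whereas among all tested genes 8.25% were higher in every VO library than in every sham library and 12.9% were lower. An exact permutation of 3 libraries against 3 cannot go below a p of 0.1, so it cannot pass a threshold of 0.05 for a single gene.

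The members differed widely between libraries of the same group, which is given here as a description without a test. VO 2 was the lowest VO library in 34 of the 35, Ifi35 being the exception, and VO 2 was lowest of its group in 28% of all tested genes. VO 2 also lay below every sham library in 20 members (57.1%, and 28% of all tested genes), and above every sham library in 0 (24.6% of all tested genes). VO 1 lay above every sham library in 25 members (71.4%, and 32.7% of all tested genes), and VO 3 in 21 (60%, and 27.5%). Within the sham group, sham 2 was lowest in 28 members (80%, and 34.2% of all tested genes). Sham 3 was the highest sham library in 26 of the 35, and in 3558 of the 12627 tested genes.

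Per library, the median of the members' deviations from each gene's own mean was -0.10, -0.32 and 0.11 on the log2 scale in sham 1 to 3, and 0.49, -0.41 and 0.37 in VO 1 to 3. The same median over all tested genes lay between -0.03 and 0.02. The median SD within groups was 0.39 on the log2 scale for the members and 0.20 for all tested genes. Members of an interferon programme are known to be switched on together, so these counts are not independent of each other, and the libraries behind them number 6.

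**Figure D1:**
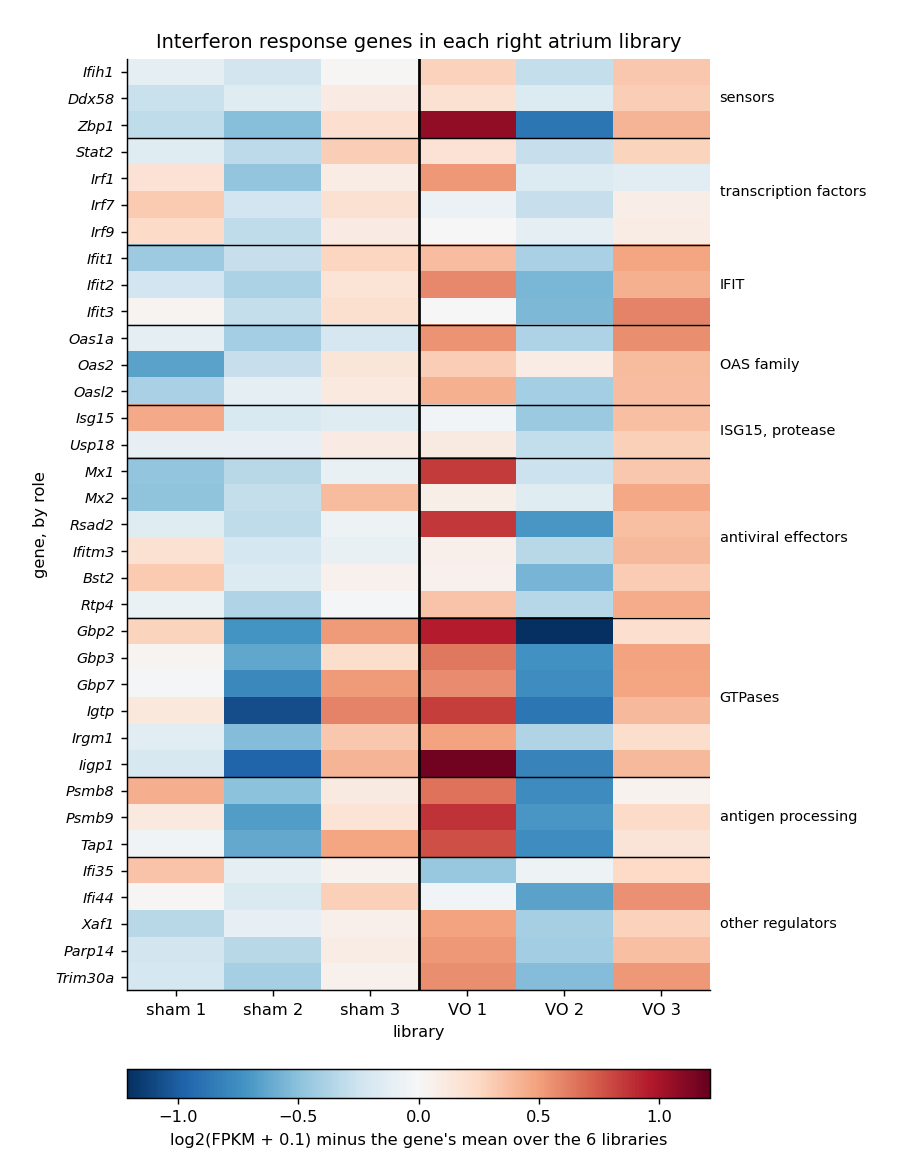
Heat map of the 35 interferon response genes (rows, by role) in the 6 libraries (columns, sham left and VO right of the line); colour is log2(FPKM + 0.1) minus the gene's mean over the 6 libraries. The columns of VO 1 and VO 3 are mostly above the mean, VO 2 is the lowest VO library in 34 of 35 rows, and sham 2 is the lowest sham library in 28.

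Among the sensors of nucleic acid, the VO 1 and VO 3 libraries lay above every sham library in 3 of 3 genes and VO 2 in 0. Zbp1, which senses left-handed DNA or RNA and can start necroptosis, was at 4.26, 3.68 and 6.11 FPKM in sham 1 to 3 and at 11.3, 2.85 and 7.10 in VO 1 to 3. Its lowest and its highest library were both VO libraries. The log2 fold change of Zbp1 was 0.41 (SE 0.47, adjusted p = 0.685 in limma), and it turned to -0.02 without VO 1. Ifih1, the sensor MDA5 of long double-stranded RNA, was at 9.71, 8.97 and 10.6 FPKM in sham and 12.7, 8.52 and 13.1 in VO. Ddx58, the sensor RIG-I, ran from 11.2 to 14.4 FPKM in sham and from 11.98 to 16.6 in VO, for a log2 fold change of 0.21 as in Ifih1, and without VO 1 these were 0.17 and 0.12.

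The 4 transcription factors had log2 fold changes between -0.18 and 0.15. Stat2, a part of ISGF3, had a mean of 16.3 ± 3.76 FPKM in sham and 17.5 ± 3.36 in VO (SD, n = 3). Irf9, its partner there, ran from 17.1 to 24.8 FPKM in sham and from 19.5 to 22.5 in VO. Irf7, which amplifies type I interferon production, was at 37.2, 25.3 and 33.8 FPKM in sham and 28.4, 24.5 and 31.5 in VO. It was among the 2 lowest fold changes of the members, at -0.18 (SE 0.17, adjusted p = 0.632 in limma). Irf1, a factor known to be induced by interferon gamma, was at 13.2, 8.36 and 12.4 FPKM in sham and 16.9, 10.4 and 10.6 in VO, so its high VO value came from VO 1 alone. In all 4 factors sham 2 was the lowest sham library and VO 2 the lowest VO library.

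Of the IFIT proteins, that of Ifit1 binds viral RNA that lacks the cap modification of the host. The IFIT genes lie side by side on chromosome 19 (chr19:34550694-34650009 in GRCm38). Ifit1 was at 23.8, 26.7 and 38.9 FPKM in sham 1 to 3 and 41.9, 24.7 and 45.1 in VO 1 to 3. Ifit2 was at 13.6, 12.3 and 18.1 FPKM in sham and 24.1, 10.9 and 21.6 in VO. The log2 fold change was 0.30 in each, and without VO 1 it was 0.19 in Ifit1 and 0.09 in Ifit2. Both had 2 VO libraries above every sham library and 1 near or below the lowest sham library. Ifit3 was at 49.8, 39.6 and 55.4 FPKM in sham and 48.7, 33.3 and 73.5 in VO, for a log2 fold change of 0.04 (SE 0.28, adjusted p = 0.955 in limma). Of the windows of 150 bases in the transcripts of Ifit3, 18.5% also occur in Ifit3b, so reads could be shared between them, and the log2 fold change of Ifit3b was 0.11.

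The OAS enzymes make the oligoadenylate that activates RNase L, and this family held the member with the smallest p-value. Oas2 (ENSMUSG00000032690, chr5:120730333-120749853, minus strand) was at 5.05, 6.58 and 8.87 FPKM in sham 1 to 3 and at 9.84, 8.52 and 10.5 in VO 1 to 3. Here the groups overlapped only through VO 2, which lay below sham 3. Its log2 fold change was 0.52 (SE 0.21, 95% interval 0.03 to 1.00, unadjusted p = 0.0396 and adjusted p = 0.41 in limma). Oas1a was at 6.75, 5.45 and 6.32 FPKM in sham and 10.6, 5.60 and 10.8 in VO, for a log2 fold change of 0.48 (SE 0.26, adjusted p = 0.45 in limma). Without the library VO 2, the fold change of Oas1a was 0.79, with an unadjusted p of 0.00103 and an adjusted p of 0.243 in limma. VO 2 was its lowest VO library, so leaving it out had to raise the fold change. Of the 150-base windows of Oas1a, 32.4% also occur in its near copy Oas1g, which was at 1.92, 2.06 and 2.55 FPKM in sham and 3.86, 2.36 and 3.69 in VO. Oasl2, an OAS relative, ran from 14.2 to 20.3 FPKM in sham and from 14.0 to 25.3 in VO, and its log2 fold change of 0.26 was 0.11 without VO 1.

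Isg15, a ubiquitin-like protein that is joined to other proteins, and Usp18, the protease that removes it, had widely overlapping values in the groups. Isg15 was at 46.5, 29.7 and 30.5 FPKM in sham and 33.1, 24.7 and 43.6 in VO, its highest value being in sham 1. Its log2 fold change was -0.08 (SE 0.25, adjusted p = 0.901 in limma) and became 0.06 with TPM and 0.05 with quantile normalization. Usp18 ran from 14.2 to 16.4 FPKM in sham and from 12.4 to 18.7 in VO, for a log2 fold change of 0.07.

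Of the 6 antiviral effectors, 5 were higher and 1 was lower in VO, and 0 passed the test. Mx1, of the dynamin-like GTPase family, had the largest fold change of the members, and was at 2.004, 2.22 and 2.64 FPKM in sham 1 to 3 and at 5.15, 2.35 and 3.57 in VO 1 to 3. Its log2 fold change was 0.61 (SE 0.28, 95% interval -0.05 to 1.26, adjusted p = 0.422 in limma), and 0.34 without VO 1. The values of VO 1 and VO 3 lay above all sham values, and VO 2 lay within them. Rsad2, which encodes viperin, was at 14.8, 13.2 and 15.7 FPKM in sham, an SD of 1.27, and at 29.6, 10.004 and 21.1 in VO, an SD of 9.84. Its log2 fold change moved from 0.34 with all libraries to 0.78 without VO 2 and to 0.00 without VO 1.

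The most abundant members were also effectors. Ifitm3, a membrane protein that blocks the entry of viruses, was at 309, 236 and 257 FPKM in sham and 285, 215 and 358 in VO. Bst2, or tetherin, which holds budding virions at the cell surface, was at 110, 78.2 and 90.9 FPKM in sham and 91.2, 59.4 and 109 in VO. In both, the sham and VO ranges overlapped over most of their width, and the log2 fold changes were 0.08 for Ifitm3 and -0.13 for Bst2, the latter being 0.01 with TPM and 0.07 with quantile normalization. Mx2 ran from 2.99 to 5.54 FPKM in sham and from 3.82 to 5.87 in VO. Rtp4 ran from 19.6 to 25.0 FPKM in sham and from 19.8 to 34.5 in VO, and 6.92% of its 150-base windows also occur in the overlapping gene Gm45338.

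**Figure D2:**
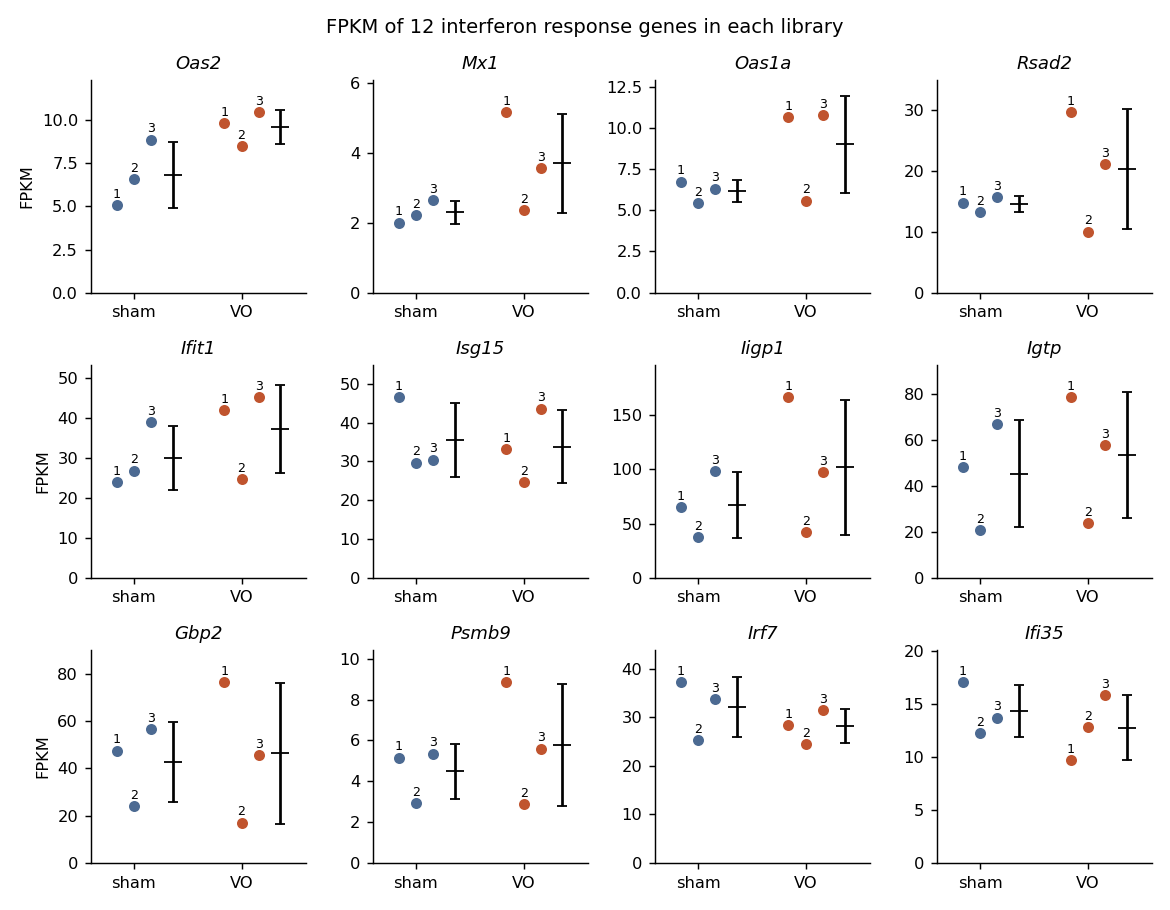
FPKM of 12 members (1 panel each, axes from 0); points are libraries with their replicate number, blue for sham and orange for VO, and the bar beside each group is its mean ± SD (n = 3). In 11 panels the point of VO 2 is the lowest VO point, Ifi35 being the exception, and in Gbp2, Igtp, Iigp1 and Psmb9 sham 2 is low beside its group as well.

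The guanylate-binding proteins (GBPs) and the immunity-related GTPases, which attack the vacuoles of intracellular microbes, had the largest median SD within groups of the 9 roles, 0.78 on the log2 scale. Gbp2, Gbp3 and Gbp7 are neighbours (chr3:142530342-142638008 in GRCm38). Gbp2 was at 47.5, 23.8 and 56.6 FPKM in sham 1 to 3 and at 76.3, 17.0 and 45.5 in VO 1 to 3, a ratio of 4.49 between the highest and the lowest VO library. Igtp, whose promoter is printed above, was at 48.2, 20.8 and 67.1 FPKM in sham, a ratio of 3.22 between the highest and the lowest, and at 78.7, 23.9 and 57.9 in VO. Iigp1 was at 65.0, 37.7 and 98.5 FPKM in sham and 167, 42.3 and 97.3 in VO. In all 6 genes the order within groups was the same at its ends: sham 2 was the lowest and sham 3 the highest sham library, and VO 2 was the lowest and VO 1 the highest VO library. Over all tested genes the median ratio between the highest and the lowest library was 1.25 in sham and 1.30 in VO.

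The sum over the 6 GTPases was 231, 129 and 313 FPKM in sham 1 to 3 and 429, 130 and 296 in VO 1 to 3. The sham 2 and VO 2 libraries, from different groups, thus had nearly equal sums. VO 3 lay above every sham library in 1 of the 6 and VO 1 in 6 of 6. The log2 fold change of Iigp1 was 0.50 (SE 0.53, adjusted p = 0.664 in limma), and was 0.04 without VO 1 and 1.03 without VO 2. Those of Gbp3, Gbp7, Igtp and Irgm1 lay between 0.20 and 0.26, and without VO 1 between -0.13 and 0.03. Gbp2 had a fold change of -0.04 (SE 0.56), which was 0.10 with TPM, 0.12 with quantile normalization, -0.52 without VO 1 and 0.56 without VO 2. For Gbp7, 8.77% of the 150-base windows also occur in the pseudogene Gm43802.

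The antigen processing genes Psmb8 and Psmb9, which encode immunoproteasome subunits, and Tap1, which carries peptides to MHC class I, lie together on chromosome 17 (chr17:34181988-34201454 in GRCm38). Psmb9 was at 5.16, 2.93 and 5.35 FPKM in sham and 8.84, 2.88 and 5.60 in VO. Tap1 was at 11.2, 7.49 and 16.2 FPKM in sham and 19.99, 6.81 and 12.9 in VO. Psmb8 was at 8.72, 4.49 and 6.91 FPKM in sham and 10.1, 3.72 and 6.60 in VO. As in the GTPases, VO 1 was the highest VO library and VO 2 and sham 2 were the lowest of their groups in all 3. The log2 fold changes were -0.04, 0.27 and 0.12 for Psmb8, Psmb9 and Tap1, and all were below 0 without VO 1. Exons of Psmb9 and Tap1 overlap on opposite strands, as do 14.7% of the exon bases of Psmb8 with Gm20496, and the strand setting of the counting is not given in the sources used here.

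Among the remaining regulators, Trim30a, Parp14 and Xaf1 had log2 fold changes of 0.37, 0.32 and 0.25, which were 0.18, 0.13 and 0.06 without VO 1 and 0.73, 0.60 and 0.51 without VO 2. Trim30a, which restrains inflammatory signalling, was at 13.2, 11.6 and 16.0 FPKM in sham and 22.8, 10.6 and 22.1 in VO. Parp14, an ADP-ribosyltransferase, ran from 11.4 to 15.3 FPKM in sham and from 10.7 to 20.8 in VO, and Xaf1 from 9.42 to 12.4 in sham and from 8.97 to 16.8 in VO. All 3 had VO 1 and VO 3 above every sham library and VO 2 below every sham library. Ifi44 was at 8.04, 7.05 and 9.78 FPKM in sham and 7.76, 5.04 and 11.8 in VO. Ifi35 was the only member with VO 1 as its lowest library, at 17.0, 12.3 and 13.7 FPKM in sham and 9.70, 12.8 and 15.8 in VO, and 16.8% of its exon bases are overlapped by Gm11626 on the opposite strand.

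The comparison depended on which libraries were in it, sham as well as VO. With VO 2 left out, 33 members were higher, the median log2 fold change was 0.53, and 14 members had an unadjusted p under 0.05 in limma, all higher in VO, beside 6.21% of all tested genes higher at that threshold. These 14 were Oas1a, Oas2, Oasl2, Ifit1, Ifit2, Mx1, Rsad2, Rtp4, Zbp1, Ifih1, Trim30a, Parp14, Xaf1 and Gbp3, and the smallest adjusted p was 0.243. VO 2 was the lowest VO library in 34 of the 35 members, so leaving it out had to raise their fold changes. The 14 are therefore a description and no support for a difference. The count was 0 without sham 1, sham 2, VO 1 or VO 3, and 1 without sham 3. With VO 1 left out, 22 were higher and the median was 0.03, and with VO 3 left out 24 and 0.10. With sham 2 left out, 19 were higher and 16 lower, and the median was 0.01, the lowest of these fits. With sham 1 or sham 3 left out, 31 were higher and the medians were 0.19 and 0.38. Without sham 2, the median of the 6 GTPases was -0.07. Of the antigen processing genes 0 of 3 were then higher, and of the transcription factors 0 of 4. The 3 OAS genes and the 3 sensors stayed higher, as did 2 of 3 IFIT genes and 4 of 6 effectors. No sample property in the labels sets VO 2 apart, and the values are given with all 3 VO libraries as the main result.

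**Figure D3:**
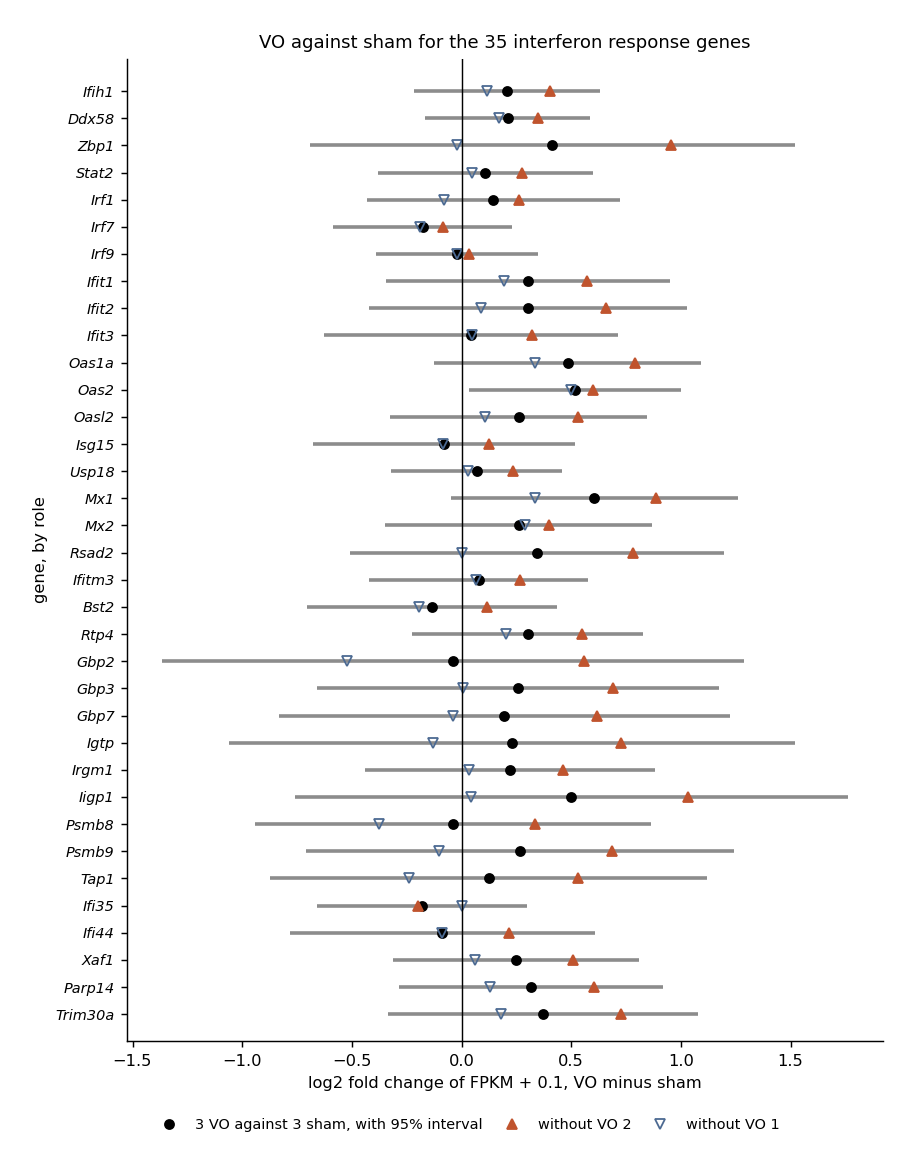
Log2 fold change, VO minus sham, of the 35 members by role (black, with the 95% interval of limma's fit as a grey line), and the same without VO 2 (orange triangles) or without VO 1 (open blue triangles). The interval of Oas2 alone excludes 0, and the triangles without VO 2 are right of the black points in 34 of 35 members.

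The interferons themselves were hardly read. Of 21 ligand genes, 19 were listed at 0 in every library, Ifnb1 among them, where a count of 0 allows up to 3 fragments per library. Ifng, the gene of interferon gamma, had 11 fragments (0.468 FPKM) in VO 1 and 0 in each of the other 5 libraries. The only other ligand read, Ifnz, had 1 fragment, also in VO 1. None of the ligands passed the filter on low values, so none was tested.

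The receptor chains were read in every library. Ifnar1 was at 9.49, 9.004 and 9.79 FPKM in sham and 14.6, 9.13 and 9.34 in VO, and Ifnar2 ran from 8.75 to 11.6 in sham and from 8.86 to 11.9 in VO. Ifngr1 was at 32.0, 27.9 and 25.4 FPKM in sham and 35.2, 31.5 and 40.2 in VO, for a log2 fold change of 0.33 (SE 0.14, unadjusted p = 0.049, adjusted p = 0.414 in limma). Ifngr2, the other chain of the gamma receptor, ran from 29.6 to 41.9 in sham and from 30.8 to 33.5 in VO. Ptpn11, which encodes the phosphatase SHP2, was at 50.2, 44.8 and 50.1 FPKM in sham and 31.01, 40.96 and 38.2 in VO, and its log2 fold change of -0.40 (SE 0.13, adjusted p = 0.404 in limma) came without overlap between the groups. Il10rb, a receptor chain, and the kinase Jak1, both named after their values were seen, were also lower in every VO library, with log2 fold changes of -0.23 and -0.11, so that 3 of the 16 tested (18.8%) were lower without overlap, beside 12.9% of all tested genes. Of the 17 receptors and transducers 16 were tested, with 12 higher, 4 lower and a median of 0.05, or 8 higher, 8 lower and a median of -0.01 without VO 1, and 0 passed the adjusted threshold.

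In a wider list of other interferon-induced genes, VO 1 and VO 3 again had the highest medians and sham 2 and VO 2 the lowest, with sham 2 below VO 2 here (-0.37 and -0.30 on the log2 scale). Of its 78 genes 71 were tested, 67 were higher and 4 lower in VO, and the median log2 fold change was 0.36. Without VO 1 the median was 0.16, with 56 higher and 15 lower, and without VO 3, sham 2 or VO 2 it was 0.22, 0.19 or 0.63. At an unadjusted p under 0.05 there were 7 (9.86%), all higher, beside 3.89% of all tested genes, and after adjustment 0. VO 1 and VO 3 each lay above every sham library in 55 of the 71, and VO 2 in 4, being the lowest VO library in 62. Apol9b was at 2.08, 1.85 and 1.89 FPKM in sham and 4.57, 2.43 and 3.14 in VO, for a log2 fold change of 0.73 (SE 0.23, adjusted p = 0.404 in limma). Lgals3bp, a secreted glycoprotein, was at 54.7, 64.9 and 64.2 FPKM in sham and 100.05, 71.1 and 84.9 in VO. In both, every VO library lay above every sham library, as in 3 of the 71 genes (4.23%), a smaller share than the 8.25% of all tested genes.

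The other genes of the wider list with the smallest p-values were Oas1g and 3 genes of the Ifi200 cluster of DNA sensors on chromosome 1, namely Mndal, Ifi204 and Ifi207, with log2 fold changes of 0.56, 0.70, 0.65 and 0.67. Mndal was at 10.05, 11.3 and 13.8 FPKM in sham and 25.1, 13.1 and 20.5 in VO. These neighbours are similar in sequence, and how reads with several matches were counted is not given in the sources used here. Cxcl10, a chemokine that draws T cells, was named after its values were seen, as the only other tested gene of the list without overlap, at 1.68, 2.11 and 2.48 FPKM in sham and 16.1, 2.83 and 3.19 in VO. The genes that sense nucleic acid upstream of interferon were tested in 15 of 18, with 12 higher, a median of 0.20, which was 0.03 without VO 1, and 0 at an unadjusted p under 0.05. All 19 MHC class I and immunoproteasome genes of a further list were tested, with 17 higher, a median of 0.16 and 0 at an unadjusted p under 0.05. Without VO 1, 8 were higher and 11 lower and the median was -0.06, and without VO 2 it was 0.40. Their sum was 1627, 1437 and 1643 FPKM in sham and 4022, 1374 and 1780 in VO.

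The pan-leukocyte and macrophage markers stood apart in VO 1, and some of them were higher in every VO library than in every sham library. The 4 pan-leukocyte markers, led by Laptm5, a lysosomal protein of blood cells, summed to 26.005, 23.8 and 22.2 FPKM in sham 1 to 3 and to 80.3, 25.8 and 32.4 in VO 1 to 3. The 9 macrophage markers, led by the lysozyme gene Lyz2, summed to 367, 292 and 267 FPKM in sham and to 940, 306 and 371 in VO. VO 1 was thus far above all other libraries in these lists. VO 3 came next, and lay above every sham library in 4 of 4 pan-leukocyte and 6 of 9 macrophage markers. In both lists the sums of sham 2 and VO 2, the low libraries of the members, lay between those of sham 1 and sham 3. By single markers, VO 2 lay above every sham library in 2 of 4 and 3 of 9 (50% and 33.3%, and 24.6% of all tested genes). Every VO library lay above every sham library in 2 of 4 pan-leukocyte and 3 of 9 macrophage markers. These were 50% and 33.3%, beside 8.25% of all tested genes. At an unadjusted p under 0.05 in limma 0 and 1 of them were higher, and 0 after adjustment. The median log2 fold changes of the 2 lists were 0.80 and 0.61. Without VO 1 they were 0.27 and 0.23, with 4 of 4 and 7 of 9 markers higher. In bulk tissue, fewer cells of a type and less RNA per cell cannot be told apart.

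The members and the leukocyte markers are set side by side here without a test. VO 1, with the highest pan-leukocyte sum, was the highest of the 6 libraries in 18 of the 35 members, and in 3205 of the 12627 tested genes. The 18 members held all 6 GTPases and all 3 antigen processing genes. Sham 3, the highest sham library in 26 members, had the lowest pan-leukocyte sum. VO 3, at a pan-leukocyte sum of 32.4 FPKM, was above VO 1 in 17 members. The 5 neutrophil markers, led by S100a9, summed to 10.1, 0.195 and 4.31 FPKM in sham and 60.0, 3.93 and 1.07 in VO. The 6 natural killer (NK) cell markers, led by Nkg7, and the 5 B cell markers, led by Cd79b, were highest in VO 1 too, at 4.53 and 7.92 FPKM. The 8 T cell markers summed to 29.8, 17.6 and 16.1 FPKM in sham and 10.97, 15.9 and 19.1 in VO, lowest in VO 1. This sum was led by Trac at 6.84 to 29.1 FPKM, whereas the defining marker Cd3e was at most at 0.284 FPKM. The thymocyte list was led by Cd1d1, at 2.41 to 2.87 FPKM in sham and 3.53 to 7.90 in VO, with Rag1 at most at 0.322. Cd1d1 was the only 1 of the 7 genes of this list that was tested. Its groups did not overlap, as in 8.25% of all tested genes that were higher in VO. Its log2 fold change was 1.00 (SE 0.27, unadjusted p = 0.00786 and adjusted p = 0.383 in limma). For plasmacytoid dendritic cells, known as strong producers of type I interferon, Siglech had 5 fragments in VO 1, 7 in VO 3 and 0 in the other 4 libraries, while the list's most abundant gene, Cox6a2, is also a gene of striated muscle, at 244 to 1103 FPKM.

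Among the cells of the atrial wall, the 6 endothelial markers, led by Pecam1, summed to 189 to 207 FPKM in sham and 201 to 211 in VO, and the 6 fibroblast markers, led by Dcn, to 620 to 642 in sham and 620 to 803 in VO. The 6 atrial cardiomyocyte markers summed to 19278, 13610 and 13210 FPKM in sham and 6190, 12713 and 9322 in VO, all 6 being lower in VO, the median of the log2 fold changes being -0.61. In the cardiomyocyte sum VO 2 was the VO library nearest to sham and VO 1 the farthest from it. The part of these cell markers in the members' values was not tested.

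**Figure D4:**
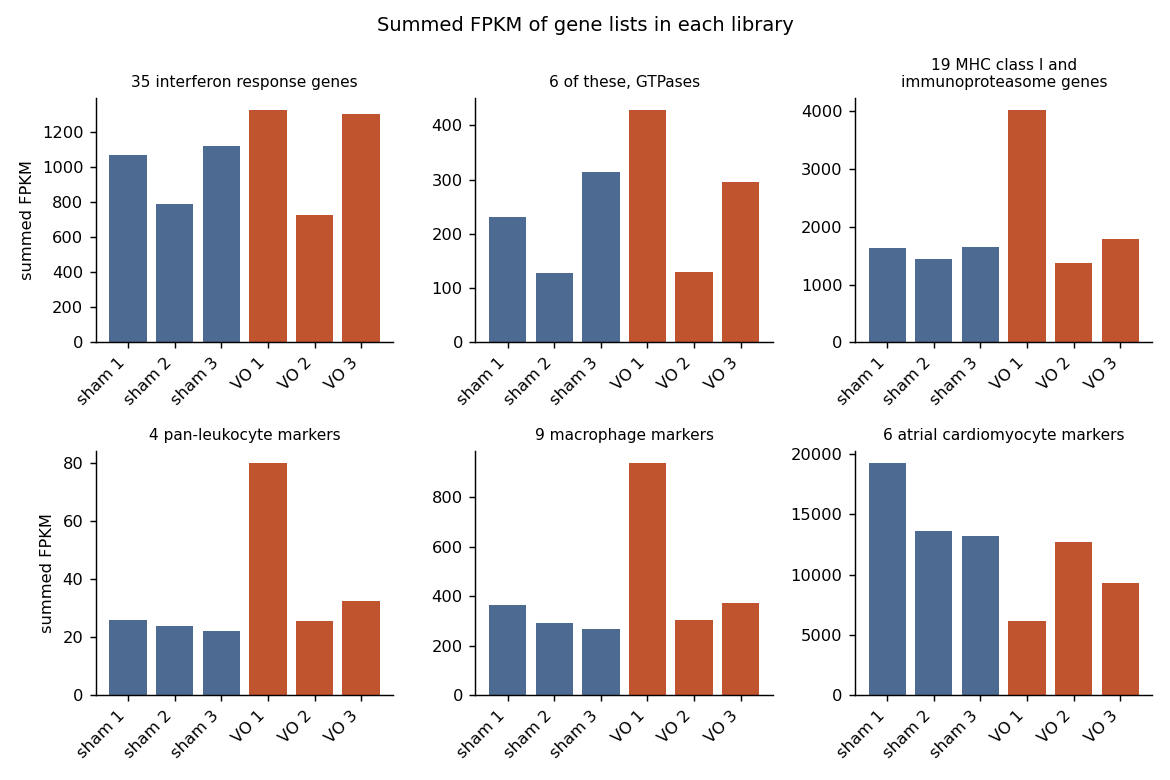
Summed FPKM in each library (bars from 0, blue for sham and orange for VO) of the 35 members, of the 6 GTPases among them, of 19 MHC class I and immunoproteasome genes, and of markers of leukocytes, macrophages and atrial cardiomyocytes. The members and the GTPases are low in sham 2 and VO 2 and highest in VO 1. The leukocyte and macrophage markers are highest in VO 1 too, at 80.3 and 940 FPKM, and next in VO 3, at 32.4 and 371 FPKM.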

How the data were processed

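Right atrium RNA of 3 sham and 3 VO libraries was analysed. The authors made libraries with the NEBNext Ultra kit, aligned reads with HISAT2 2.0.5, counted them per gene with featureCounts 1.5.0-p3 and deposited FPKM values, with GRCm38 (mm10) as build per the submitters' processing notes; the deposited FPKM were already scaled to each other, a median-of-ratios factor being 1.00 for every library. All values above 0 were whole multiples of a step per library (tolerance 0.01), which gave back the fragments. Their number limits the precision of low genes, and floors cover counting error only. An incomplete last line was left out.

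Genes with a mean of at least 1 FPKM were fitted on log2(FPKM + 0.1), so that changes of low genes are understated, with limma 3.58.1 in R 4.3.3 (lmFit, eBayes with a trend), VO against sham. P-values were two-sided and adjusted by Benjamini-Hochberg over the 12627 genes, at a threshold of 0.05. The fit was tested on simulated data, and the recovery of fragments only by the nearness of the deposited values to whole multiples. The text names all 35 members, of each further list up to 6 genes with an unadjusted p under 0.05, receptors, Ifnb1, Ifng, near copies, and the most abundant marker of each cell type; 1 further gene of this rule is not reported here. The members and lists were chosen with earlier results of these data known. Alternatives were other pseudocounts (1, 0.01), filters (0.1, 5 or none), TPM, quantile normalization, eBayes without trend or robust, array weights, voom on the recovered fragments, a replicate block, and each library left out in turn. Shared sequence was counted as 150-base windows of GENCODE vM21 transcripts, and promoters came from RefSeq. Plots were made in Python 3.11.15 (matplotlib 3.10.9).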

Additional observations from a re-analysis of the deposited data

How the results depend on the processing

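Under the 18 alternatives, 0 members passed the adjusted threshold, the median log2 fold change of the members stayed above 0 and between 19 and 33 members were higher in VO. Of the 35 members, 18 kept their direction under every alternative that tested them (Mx1 and Mx2 were not tested at a mean of at least 5 FPKM), 17 turned when a library was left out and 8 under another setting. TPM moved the median of all tested genes from -0.01 to 0.13 and that of the members from 0.22 to 0.36, whereas array weights lowered the latter to 0.084 and a left-out library gave 0.015 to 0.53. TPM also turned the unadjusted split of all tested genes from 491 higher and 1020 lower to 1085 higher and 486 lower. The cause of the turns was not tested. With 3 libraries per group and a median SD of 0.39 within groups, differences of the members' size are not resolved, and the part of counting error in that spread was not tested.

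The count of members with an unadjusted p under 0.05, 1 in the main fit, was 3 with TPM, 0 in eBayes without trend, 0 with array weights, and from 0 to 14 with a library left out. Over all tested genes, libraries of the same replicate number had deviations from their group means that correlated by -0.108, 0.0112 and -0.0292. A correlation over all genes cannot settle whether the samples are paired in a smaller set such as the members. In the members, sham 2 and VO 2 were both low. The replicate block gave 2 members and 933 of all tested genes at an unadjusted p under 0.05, and 0 after adjustment. For all tested genes, 1511 in the main fit, the count was 855 to 1998 with a library left out, and the adjusted count, 1 in the main fit, was 2 with a pseudocount of 1, 3 with a mean of at least 0.1 FPKM, 3 in eBayes without trend, 0 with quantile normalization, 0 with robust variance and 0 with any library left out.

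The median of receptors and signal transducers was 0.19 with TPM and -0.0082 to 0.082 with a library left out, that of MHC class I genes was -0.061 to 0.40 and that of other induced genes 0.16 to 0.63 with a library left out, and that of sensing genes was 0.029 with a mean of at least 5 FPKM and 0.031 to 0.24 with a library left out. The median of endothelial markers was 0.13 with TPM, 0.14 with quantile normalization and -0.080 to 0.088 with a library left out, and that of fibroblast markers was 0.31 with quantile normalization.

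With TPM, the fold changes of Irf9, Isg15, Ifi44, Bst2, Gbp2 and Psmb8 turned to 0.12, 0.059, 0.050, 0.0051, 0.10 and 0.099. With quantile normalization those of Irf9, Isg15, Bst2 and Gbp2 turned to 0.077, 0.049, 0.065 and 0.12. With array weights those of Irf9, Isg15, Ifi35 and Tap1 turned to 0.037, 0.060, 0.0017 and -0.11.

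Over the fits that leave out 1 library, the fold change of Stat2 ran from -0.024 to 0.29, of Irf1 from -0.079 to 0.27, of Irf9 from -0.18 to 0.091, of Isg15 from -0.28 to 0.13, of Ifit3 from -0.25 to 0.32, of Ifitm3 from -0.098 to 0.27, of Ifi35 from -0.35 to 0.0031, of Ifi44 from -0.39 to 0.22 and of Usp18 from -0.060 to 0.23. It ran from -0.32 to 0.12 in Bst2, from -0.022 to 0.95 in Zbp1, from -0.52 to 0.56 in Gbp2, from -0.15 to 0.62 in Gbp7, from -0.25 to 0.73 in Igtp, from -0.38 to 0.33 in Psmb8, from -0.10 to 0.69 in Psmb9 and from -0.24 to 0.53 in Tap1.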
